A study of Homo sapiens with 36 samples.

Results

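The cytosolic heat shock chaperones described here are 10 genes, chosen by name from a gene table of 21950: HSPA1A, HSPA1B, HSPA8, HSP90AA1, HSP90AB1, HSPH1, DNAJB1, HSPB1, CHORDC1 and BAG3. All 10 were in the table and all 10 passed the filter for testing, a mean of at least 1 FPKM over all libraries, as did 10625 genes in total. FPKM is a fragment count divided by transcript length and by library size, so that levels can be set side by side between genes. The values came from RNA sequencing of K562, an established human erythroleukemia line that grows in suspension. Plates stood in incubators of 1% or 5% oxygen, or of 21% oxygen, the level of room air, and were sampled after 6 h, 24 h, 3 d and 6 d, with the cells passaged at 3 d. Each of the 12 groups had 3 libraries, 36 in all, and no other agent or allele set the groups apart.

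Nothing in the labels says that the replicates were separate cultures, so the p-values below measure only the spread between these libraries, which may be technical. Oxygen level and incubator cannot be told apart. In bulk RNA, fewer cells of a type and less RNA per cell cannot be told apart either. The erythroid and leukemia markers GATA1, TFRC, HBZ, HBE1, KLF1 and TAL1 were above 0 in every library. Of 7 markers of other cells, 5 (CD3E, COL1A1, PECAM1, ALB and CDH1) had medians of 0.0620 to 0.799 FPKM and a highest value of 2.82 FPKM, and the blood cell genes PTPRC and LYZ had medians of 11.85 and 24.6 FPKM. Replicate 3 of 1% oxygen at 3 d stood apart: 7220 genes were above 0 in it, against 14512 to 19543 in any other library. It is called the shallow library, and results that rest on it are given with and without it.

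Heat shock proteins are chaperones that bind unfolded proteins and help them fold, refold or be degraded. HSP70 proteins work in a cycle driven by ATP with J-domain proteins and nucleotide exchange factors, and hand many clients to HSP90, which completes the folding of kinases and steroid receptors. Their genes are switched on by heat shock factor 1 (HSF1), which is held inactive by chaperones and, once free, binds inverted repeats of GAA in promoters, the heat shock elements.

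Those elements are visible in the reference promoters, which are shown because the repeat is a feature that most of these genes share. RefSeq promoter windows (GRCh38.p14) that run from 250 bases before to 50 after a transcript start were available for all 10 genes, in 15 windows. A pair of units was searched as GAANNTTC or TTCNNGAA and a triple as GAANNTTCNNGAA or TTCNNGAANNTTC; each set covers both strands, and every triple holds overlapping pairs. Of the 15 windows 9 held a pair, from 8 of the 10 genes, and 4 held a triple, those of HSPA8, HSP90AA1, HSP90AB1 and CHORDC1. Of all 35116 windows in the reference table, 13.5% held a pair and 0.490% a triple. HSPH1 and BAG3 had neither in these windows. In the stretches below, read 5′ to 3′ on the gene's own strand, capitals mark the matched repeats and 12 bases of flank stand on each side.
HSPA1A: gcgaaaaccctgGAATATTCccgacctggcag
HSPA1B: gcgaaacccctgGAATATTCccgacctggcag
HSPA8: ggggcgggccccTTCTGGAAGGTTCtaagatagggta
HSP90AA1: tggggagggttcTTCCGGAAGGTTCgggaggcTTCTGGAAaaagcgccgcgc
HSP90AB1: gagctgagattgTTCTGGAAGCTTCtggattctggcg
CHORDC1: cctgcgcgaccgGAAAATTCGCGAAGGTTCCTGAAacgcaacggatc
Each lies upstream of the transcript start of its own window, and HSP90AA1 and HSP90AB1 have other annotated starts further upstream, whose windows held no pair. The positions are chr6:31815425-31815456 (plus strand) for HSPA1A, chr6:31827621-31827652 (plus) for HSPA1B, chr11:123062167-123062203 (minus) for HSPA8, chr14:102087093-102087144 (minus) for HSP90AA1, chr6:44247819-44247855 (plus) for HSP90AB1 and chr11:90223075-90223121 (minus) for CHORDC1. The CHORDC1 run holds 4 overlapping pairs at positions -60 to -38 from the start, the longest unbroken run found in the windows of these genes. HSPA8 and HSP90AB1 have a further triple each, not printed. A match describes the letters in the window and shows no binding.

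The 10 genes spanned a wide range of levels. HSPA8, the constitutive HSP70 that serves folding in unstressed cells, had a median of 2402 FPKM over the 36 libraries, and HSP90AB1, the constitutive HSP90, had 1805 FPKM. HSP90AA1, the inducible HSP90, followed with 525 FPKM and HSPB1, a small heat shock protein that holds unfolded proteins without ATP, with 151 FPKM. DNAJB1, the J-domain partner of inducible HSP70, had 79.4 FPKM, CHORDC1, a zinc-binding partner of HSP90 also called CHP-1, 17.6 FPKM, and HSPH1, a nucleotide exchange factor of HSP70 also called HSP105, 14.7 FPKM. The inducible HSP70 genes were low, with medians of 8.39 FPKM for HSPA1A and 3.58 FPKM for HSPA1B, as was BAG3, a co-chaperone that links HSP70 to autophagy, with 7.38 FPKM. The stress-induced HSP70 gene HSPA6 stayed between 0.0827 and 0.564 FPKM in the 12 group means. In the values as deposited HSPA8 was thus far above the inducible HSP70 pair in every library.

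Some of these levels rest on a division of fragments between near-identical sequences. Of the windows of 25 bases, the read length, in the HSPA1A transcript, 75.1% were also present in HSPA1B, so the split between this pair is uncertain and their sum is given beside it. The share of such windows found in other annotated genes was 50.3% for HSPA8, 51.1% for HSP90AB1 and 44.4% for HSP90AA1, each with a pseudogene of its own (HSPA8P1, HSP90AB3P and HSP90AA2P) as the gene that shared most. It was 35.2% for CHORDC1, 23.4% for HSPB1, 11.8% for DNAJB1, 0.755% for HSPH1 and 0% for BAG3, so levels of the first of these are less certain than those of HSPH1 and BAG3. In the transcript table a single transcript held 98.1% of HSPA8, 99.9% of HSP90AA1, 97.4% of CHORDC1 and 79.1% of HSP90AB1. The leading CHORDC1 transcript held 1.57% in the shallow library and at least 93.5% in any other. HSPA1A and HSPA1B were each listed in 5 copies of a single transcript, of which 1 copy was above 0. How fragments were assigned between the copies is not known, so the level of the pair, also when summed, is uncertain too.

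**Figure D1:**
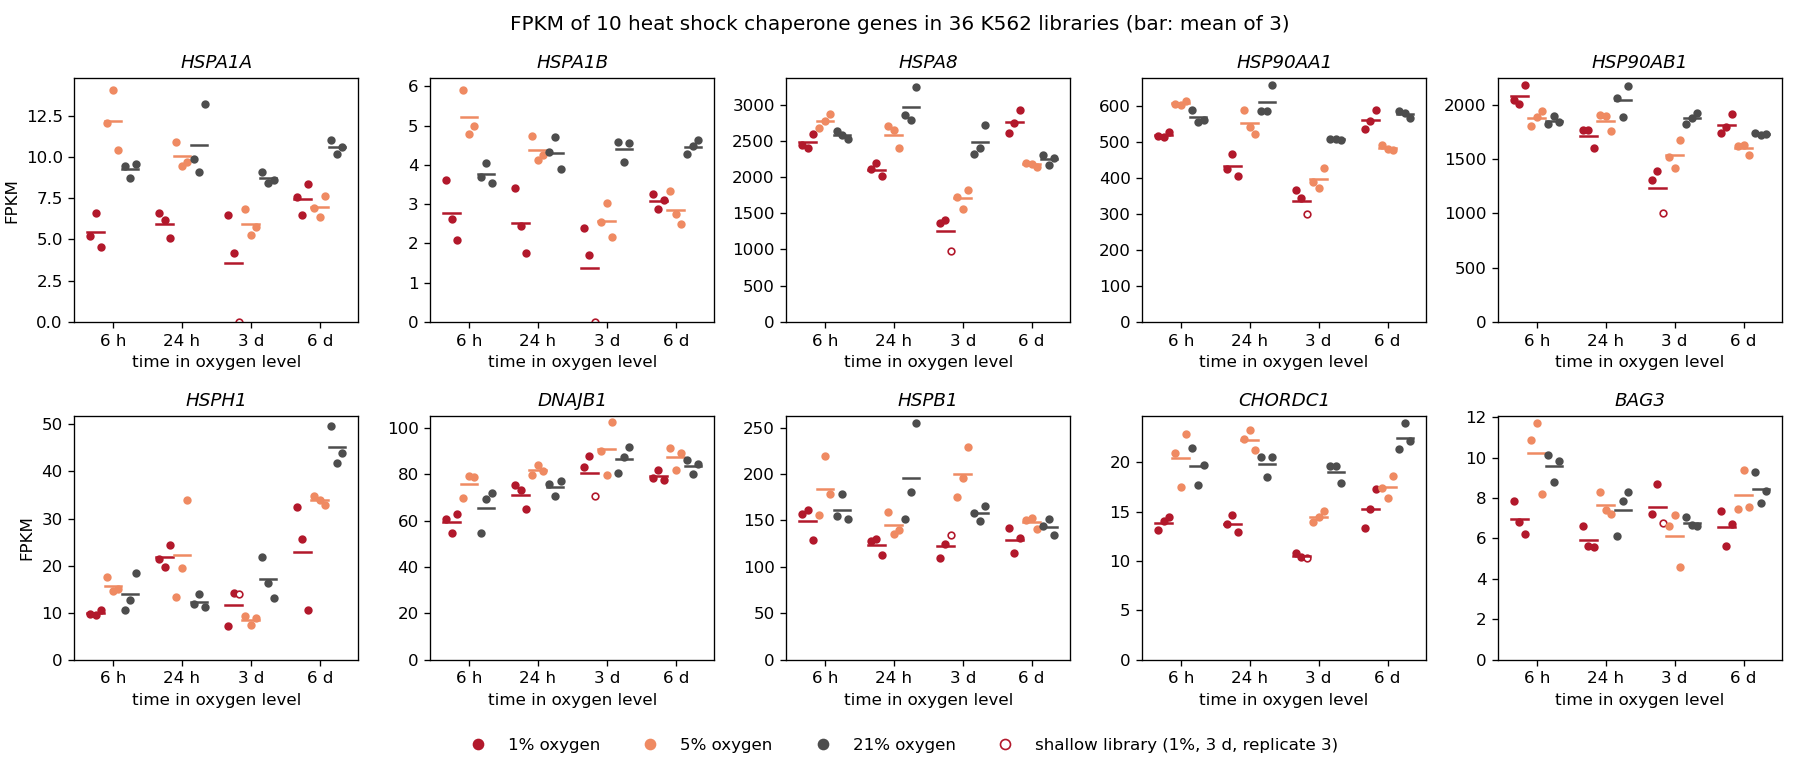
FPKM of the 10 chaperone genes (vertical axes, linear, from 0) by time in 1%, 5% and 21% oxygen (red, orange and grey points, 1 per library; bars are means of 3; the open symbol is the shallow library). CHORDC1 in 1% oxygen lies below 21% oxygen at all 4 times, and HSPA8, HSP90AA1 and HSP90AB1 reach their lowest group means in 1% oxygen at 3 d.

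The main comparison set 1% against 21% oxygen at each time. In the values as deposited CHORDC1 stood below 21% oxygen at every time, and HSPA1A had the largest average difference of the 10 genes. The group mean of 1% oxygen at 3 d was the lowest of the 12 for 7 of the 10, all but HSPH1, DNAJB1 and BAG3. The share of all genes with their lowest mean there was not counted, and 36.3% of all genes passed as lower there against 21% oxygen. No gene of the 10625 passed the test at 6 h (0%), where passing means an adjusted p below 0.05 in limma; 2 of the 10 chaperones, CHORDC1 and BAG3, and 351 genes in all had an unadjusted p below 0.05. At 24 h 5 of the 10 chaperones fell, where 16.2% of all genes passed, 9.66% lower. At 3 d 7 fell, where 53.2% of all genes passed, 36.3% lower. At 6 d 1 rose and 2 fell, where 10.9% of genes passed, 5.84% higher and 5.04% lower. Averaged over the 4 times, 8 fell and none rose, where 31.4% of genes passed, 19% lower. HSPH1 and DNAJB1 did not pass. On the TPM scale 5 fell, where 751 of the 10625 genes did, and HSP90AB1 was at 0.000531. The median log2 difference of the 10 genes was -0.61 at 3 d, where that of all genes tested was -0.32, and without the shallow library it was -0.58 beside -0.0146. A fit of the 6 libraries of 1% and 21% oxygen at 3 d alone, with fewer libraries to estimate the spread, passed 2 of the 7, HSPA8 (adjusted p = 0.0255) and HSP90AA1 (0.0259), and put CHORDC1 at 0.0535 and HSP90AB1 at 0.0592. In that fit 818 of the 10625 genes passed, 477 lower, and in the fit of all groups 5649 did.

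The inducible pair, HSPA1A and HSPA1B, makes the HSP70 that accumulates after heat or proteotoxic stress. In 1% oxygen HSPA1A had 5.19, 6.59 and 4.51 FPKM at 6 h, against 9.48, 8.71 and 9.56 FPKM in 21% oxygen. At 24 h it had 6.58, 6.16 and 5.10 FPKM in 1% oxygen, against 9.85, 9.11 and 13.2 FPKM in 21% oxygen. The 3 d libraries of 1% oxygen had 6.46 and 4.18 FPKM, and the shallow library listed 0, against 9.09, 8.40 and 8.63 FPKM in 21% oxygen. All libraries of 1% oxygen were below all of 21% oxygen at these times and also at 6 d, with 7.58, 6.47 and 8.39 FPKM in 1% oxygen, against 11.05, 10.2 and 10.6 FPKM in 21% oxygen. The log2 difference at 3 d was -1.52 (SE 0.372, adjusted p = 0.00139), and -0.64 (SE 0.157, adjusted p = 0.00107) without the shallow library. At the other times HSPA1A did not pass with all libraries: the differences were -0.68 at 6 h (adjusted p = 1), -0.75 at 24 h (0.198) and -0.46 at 6 d (0.569). Its 0 in the shallow library entered the spread that all groups share: the SE was 0.372 with that library and 0.140 without it, and the same differences then had adjusted p = 0.0441, 0.000227 and 0.0144.

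HSPA1B had 2.40 and 1.71 FPKM in 1% oxygen at 3 d and was listed at 0 in the shallow library, against 4.57, 4.07 and 4.56 FPKM in 21% oxygen. Its log2 difference was -1.36 (SE 0.256, adjusted p = 8.65e-05), and -0.83 (adjusted p = 7.94e-05) without the shallow library. At 6 h the HSPA1B libraries of the oxygen levels overlapped, with 2.08 to 3.62 FPKM in 1% oxygen and 3.55 to 4.06 FPKM in 21% oxygen. The sum of both genes, which does not depend on how fragments were divided within the pair, was 8.21 ± 1.41 FPKM in 1% oxygen at 6 h, against 13.0 ± 0.220 FPKM in 21% oxygen, and at 6 d 10.6 ± 1.10 FPKM in 1% oxygen, against 15.1 ± 0.376 FPKM in 21% oxygen (SD, n = 3 each). The ratio of HSPA1A to HSPA1B lay between 1.43 and 3.40 in the 35 libraries where both were above 0. Averaged over the times, HSPA1A (-0.85, SE 0.186, adjusted p = 0.000816) and HSPA1B (-0.69, SE 0.128, adjusted p = 0.000138) both fell, with -0.63 and -0.56 without the shallow library.

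HSPA8 was lower in 1% than in 21% oxygen at 24 h and 3 d and higher at 6 d. In 1% oxygen it had 2449, 2400 and 2599 FPKM at 6 h, against 2628, 2573 and 2521 FPKM in 21% oxygen, and these libraries overlapped. At 24 h it had 2105, 2196 and 2008 FPKM in 1% oxygen, against 2861, 2789 and 3248 FPKM in 21% oxygen, a difference of -0.49 (SE 0.094, adjusted p = 0.000851) that was -0.03 on the TPM scale and 0.11 after quantile normalization, neither of which passed. Its lowest point was 1% oxygen at 3 d, with 1364 and 1411 FPKM and 982 FPKM in the shallow library, against 2321, 2404 and 2718 FPKM in 21% oxygen. This difference of -1.001 (SE 0.094, adjusted p = 1.68e-09) was -0.83 without the shallow library (adjusted p = 1.38e-09). At 6 d the order was the opposite, with 2607, 2747 and 2919 FPKM in 1% oxygen, all above the 2305, 2160 and 2269 FPKM in 21% oxygen. That rise of 0.30 (SE 0.094, adjusted p = 0.0408) did not hold when any of 5 of the 6 libraries was left out (adjusted p 0.0783 to 0.182), the exception being replicate 1 of 1% oxygen, and it was -0.03 after quantile normalization. The test of whether the difference varied with time passed for HSPA8 (adjusted p = 1.02e-07).

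In the values as deposited, both HSP90 genes fell at 24 h and 3 d, as HSPA8 did. HSP90AA1 had 426, 466 and 405 FPKM in 1% oxygen at 24 h, against 586, 586 and 659 FPKM in 21% oxygen. At 3 d it had 366 and 343 FPKM in 1% oxygen, and 300 FPKM (299.8) in the shallow library, against 507, 508 and 505 FPKM in 21% oxygen. Libraries of the oxygen levels did not overlap at either time, and HSP90AA1 fell at 24 h (-0.50, SE 0.0687, adjusted p = 3.32e-05) and at 3 d (-0.60, SE 0.0687, adjusted p = 6.70e-08; -0.52 without the shallow library). At 6 d the levels overlapped, with 561 ± 26.6 FPKM in 1% oxygen and 577 ± 10.1 FPKM in 21% oxygen (SD, n = 3 each), a difference of -0.04 (adjusted p = 0.850).

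HSP90AB1 started higher in 1% oxygen, with 2050, 2005 and 2186 FPKM at 6 h against 1828, 1901 and 1839 FPKM in 21% oxygen, although the difference of 0.16 did not pass (adjusted p = 1). It had 1770, 1766 and 1604 FPKM in 1% oxygen at 24 h, against 2065, 1887 and 2177 FPKM in 21% oxygen. At 3 d it had 1310 and 1389 FPKM in 1% oxygen, and 1007 FPKM in the shallow library, against 1823, 1880 and 1929 FPKM in 21% oxygen. In the values as deposited, the order of the oxygen levels at 6 h was thus turned round at 24 h and 3 d, and the differences there passed. They were -0.25 at 24 h (SE 0.0828, adjusted p = 0.0351) and -0.62 at 3 d (SE 0.0828, adjusted p = 8.06e-07, and -0.48 without the shallow library). At 24 h the difference was 0.21 on the TPM scale and 0.28 after quantile normalization. The call at 24 h ended without replicate 1 or 3 of either oxygen level (adjusted p 0.0570 to 0.202). Variation with time passed for 4 of the 10 chaperones in 1% oxygen, where it did for 40.3% of all genes, among them HSP90AA1 (adjusted p = 6.39e-05) and HSP90AB1 (adjusted p = 2.17e-05).

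In the values as deposited CHORDC1, the HSP90 partner with the longest run of heat shock elements, was below 21% oxygen in every library at every time. It had 13.2, 14.1 and 14.4 FPKM in 1% oxygen at 6 h, against 21.5, 17.7 and 19.7 FPKM in 21% oxygen. At 24 h it had 13.7, 14.6 and 12.9 FPKM in 1% oxygen, against 20.5, 18.5 and 20.6 FPKM in 21% oxygen. Its 3 d values were 10.8 and 10.4 FPKM in 1% oxygen and 10.3 FPKM in the shallow library, against 19.6, 19.6 and 17.8 FPKM in 21% oxygen. At 6 d it had 13.4, 15.2 and 17.3 FPKM in 1% oxygen, against 21.3, 24.0 and 22.2 FPKM in 21% oxygen, so that the oxygen levels overlapped at none of the 4 times. The log2 differences were -0.47 at 6 h (SE 0.0983, adjusted p = 0.331), -0.50 at 24 h (adjusted p = 0.0011), -0.80 at 3 d (adjusted p = 1.97e-07) and -0.53 at 6 d (adjusted p = 0.000358). Without the shallow library the adjusted p at 6 h was 0.0423, when 0.0941% of all genes passed. Variation with time did not pass (adjusted p = 0.157), and the average was -0.57 (SE 0.0492, adjusted p = 5.93e-10). These values are as deposited. On the TPM scale 0 of the 10 chaperones, CHORDC1 included, passed as lower at 24 h, where 88 genes did.

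**Figure D2:**
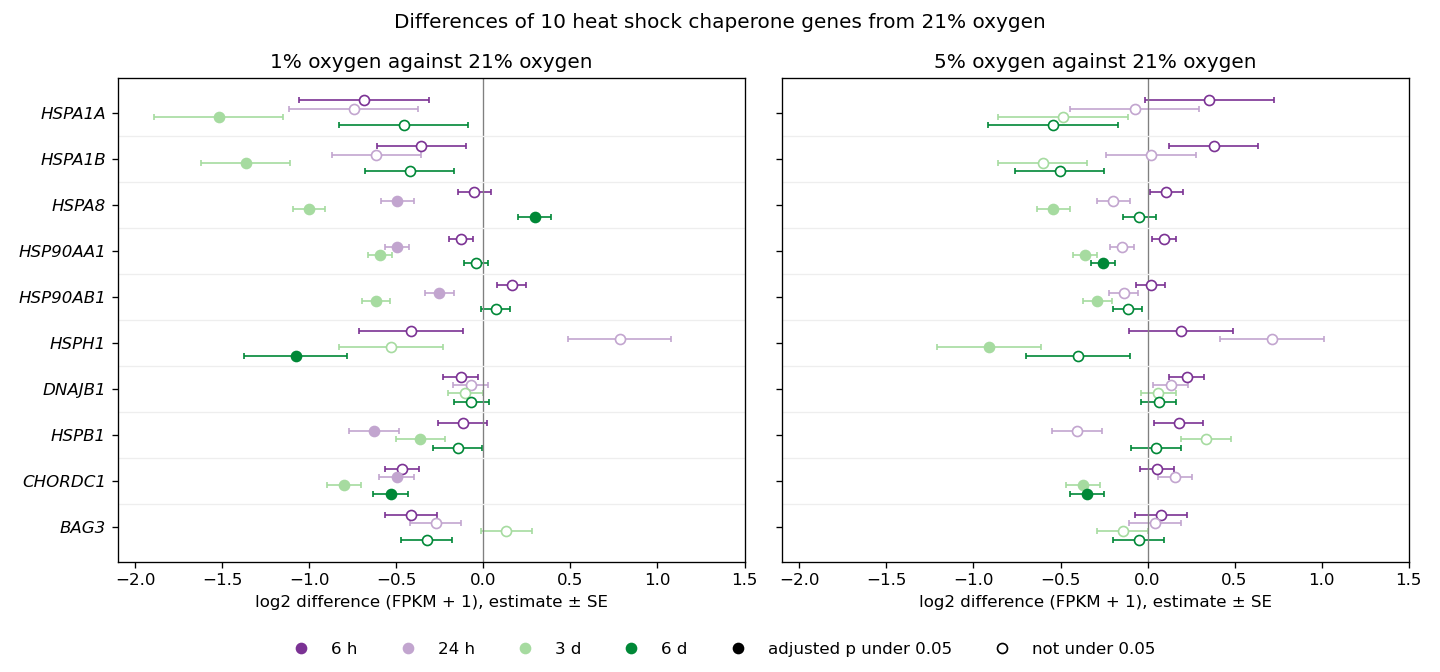
Log2 differences of FPKM plus 1 (horizontal axis, estimate ± SE, 3 libraries against 3) from 21% oxygen for each chaperone gene, in 1% oxygen on the left and in 5% oxygen on the right, with colours for the 4 times and filled symbols for an adjusted p under 0.05. CHORDC1 in 1% oxygen lies between -0.47 and -0.80 at the 4 times, whereas HSPA8 lies between -1.001 at 3 d and 0.30 at 6 d.

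HSPB1 had 128, 130 and 113 FPKM in 1% oxygen at 24 h, against 152, 181 and 255 FPKM in 21% oxygen. The groups did not overlap, but the 21% libraries were widely spread, and without the highest of them, replicate 3, the difference of -0.63 (SE 0.143, adjusted p = 0.00318) became -0.42 (adjusted p = 0.0589). At 3 d HSPB1 fell (-0.36, SE 0.143, adjusted p = 0.0354), a call that ended without replicate 1 or 3 of 21% oxygen or replicate 1 of 1% oxygen (adjusted p 0.0716 to 0.116), and the difference was 0.0928 after quantile normalization. BAG3 had 6.95 ± 0.819 FPKM in 1% oxygen at 6 h, against 9.58 ± 0.707 FPKM in 21% oxygen (SD, n = 3 each), and passed at no single time; its average difference was -0.22 (SE 0.0736, adjusted p = 0.0232), and -0.20 (adjusted p = 0.0504) without replicate 2 of 1% oxygen at 6 d. DNAJB1 passed at no time and its differences lay between -0.13 and -0.07. Its libraries overlapped between 1% and 21% oxygen at all 4 times.

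HSPH1 changed direction more than once. At 6 h it had 9.80, 9.45 and 10.5 FPKM in 1% oxygen, against 10.6, 12.7 and 18.3 FPKM in 21% oxygen, a difference of -0.42 that did not pass (adjusted p = 1). At 24 h the order was the opposite, with 21.3, 19.8 and 24.4 FPKM in 1% oxygen, all above the 11.8, 13.9 and 11.1 FPKM in 21% oxygen, a difference of 0.78 (SE 0.298, adjusted p = 0.0737, and 0.0317 without the shallow library). At 3 d the libraries overlapped, with 7.14 and 14.1 FPKM in 1% oxygen and 13.9 FPKM in the shallow library, against 21.9, 16.2 and 13.0 FPKM in 21% oxygen, a difference of -0.53 (adjusted p = 0.134), and of -0.67 (adjusted p = 0.0771) without the shallow library. At 6 d it had 32.4, 25.6 and 10.6 FPKM in 1% oxygen, against 49.6, 41.9 and 43.8 FPKM in 21% oxygen. HSPH1 fell there (-1.08, SE 0.298, adjusted p = 0.0166), but the difference was -0.63 (adjusted p = 0.216) without replicate 3 of 1% oxygen and -1.01 (adjusted p = 0.0728) without replicate 1 of 21% oxygen. Variation of the HSPH1 difference with time passed (adjusted p = 0.00615).

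The scale of the values matters at 24 h. Replicate 3 of 21% oxygen at 24 h had a summed FPKM of 1171400, where the other libraries had 535150 to 900700, and the lowest relative depth of the 35 libraries where one could be estimated (0.338 in a range up to 1.53). Dividing each library by its total (TPM) moved the median log2 difference of all genes between 1% and 21% oxygen at 24 h to 0.39, where it was -0.00396 as deposited. On that scale no chaperone passed as lower, and HSPH1 (1.23) and DNAJB1 (0.39) passed as higher, with 2286 of the 10625 genes higher and 88 lower, while HSP90AB1 turned to 0.21 (0.28 after quantile normalization) and CHORDC1 stood at -0.06. Relative to the median of all genes, 9 of the 10 chaperones were lower on both scales, and 5 of 10 after quantile normalization. At 3 d 7 of the 10 were below that median under either rescaling and 8 as deposited. The chaperones' share of a library's summed FPKM, which multiplying a library by a constant does not move, was 0.472% to 0.483% in 1% oxygen at 3 d, shallow library included, 0.470% to 0.512% in 5% oxygen and 0.711% to 0.728% in 21% oxygen. At 24 h it was 0.648% to 0.670% in 1% oxygen, against 0.553% to 0.742% in 21% oxygen, so that there the oxygen levels overlapped. HSPA8 and HSP90AB1, with medians of 2402 and 1805 FPKM, made up most of this share. It therefore says little about the low chaperones, such as HSPA1A with a median of 8.39 FPKM.

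Measures chosen for RNA quality and background also differed at 3 d. Whether the RNAs among them respond to oxygen themselves was not tested, so their levels cannot be read as RNA quality alone. Of 6 tested nuclear-retained RNAs such as NEAT1 and MALAT1, 5 rose in 1% oxygen at 3 d (4 without the shallow library), where 16.9% of all genes rose (25.2% without it). The summed level of the list with 1 untested RNA was 1855 and 1974 FPKM, with 1666 FPKM (1665.5) in the shallow library, against 1278 to 1378 FPKM in 21% oxygen. In 5% oxygen at 3 d the sum was 1683 to 1938 FPKM. GAS5 and SNHG1, which are also found in the cytoplasm, made up most of the sum, so NEAT1 is given by itself: it had 42.5 and 37.1 FPKM in 1% oxygen at 3 d (63.7 FPKM in the shallow library) and 19.4, 20.1 and 23.2 FPKM in 5% oxygen, against 7.11, 8.28 and 5.84 FPKM in 21% oxygen. Genes of olfactory receptors, used as a measure of background, were above 0 for 54.4% and 69.6% of 375 in 1% oxygen at 3 d (2.40% in the shallow library), for 47.5% to 55.7% in 5% oxygen and for 33.3% to 38.4% in 21% oxygen. The 5 low markers of other cells summed to 2.56 and 5.31 FPKM in 1% oxygen at 3 d (2.82 FPKM in the shallow library), 2.67 to 4.48 FPKM in 5% oxygen and 1.48 to 2.09 FPKM in 21% oxygen. At 24 h the list summed to 1258 to 1428 FPKM in 1% oxygen, against 1533 to 2266 FPKM in 21% oxygen, but there GAS5 (-0.62, adjusted p = 0.00453) and SNHG1 (-0.43, adjusted p = 0.000228) fell and no other member passed. The group means of MALAT1 were 190 and 193 FPKM in 1% and 21% oxygen at 24 h, and those of NEAT1 13.0 and 10.4 FPKM. The part of these differences in the chaperone results was not tested.

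In 5% oxygen the chaperones did not pass at 6 h or 24 h (0 of 10 by limma; 0% and 9.38% of all genes passed). At an unadjusted p below 0.05 there were 1 and 4 of the 10, beside 280 and 2248 genes in all. At 3 d 5 fell, where 21.8% of all genes passed, 13.6% lower: HSPA8 (-0.54, adjusted p = 7.81e-05), HSP90AA1 (-0.36, 0.000273), HSP90AB1 (-0.29, 0.0114), HSPH1 (-0.91, 0.027) and CHORDC1 (-0.37, 0.00638). HSPA8 had 1730, 1564 and 1820 FPKM in 5% oxygen, below the 2321 to 2718 FPKM in 21% oxygen, and HSPH1 had 9.18, 7.36 and 8.76 FPKM, below the 21.9, 16.2 and 13.0 FPKM in 21% oxygen. HSPB1 stood higher in 5% oxygen at 3 d, with 175, 196 and 229 FPKM, against 158, 150 and 165 FPKM in 21% oxygen; the difference of 0.33 did not pass (adjusted p = 0.1001, and 0.0493 without the shallow library). At 6 d HSP90AA1 (-0.26, adjusted p = 0.01) and CHORDC1 (-0.35, adjusted p = 0.0148) fell, where 14.8% of genes passed, 7.59% lower. Averaged over time HSPA8, HSP90AA1 and HSP90AB1 fell (-0.17, -0.17 and -0.13), where 24.2% of genes passed, 15% lower. None of these 3 averages passed on the TPM scale, where HSP90AB1 was at 0.0143, or after quantile normalization, where HSP90AA1 was at 0.00702. On the TPM scale the median of all genes moved to 0.36 at 24 h and 6 chaperones passed as higher there, with 1709 of the 10625 genes, and after quantile normalization 4 did, with 199 genes. The 1% and 5% comparisons share their 21% libraries.

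The inducible pair in 5% oxygen began above 21% oxygen and ended below it. HSPA1A had 12.1, 14.1 and 10.4 FPKM in 5% oxygen at 6 h, all above the 9.48, 8.71 and 9.56 FPKM in 21% oxygen. At 6 d it had 6.90, 6.35 and 7.66 FPKM in 5% oxygen, all below the 11.05, 10.2 and 10.6 FPKM in 21% oxygen. Neither difference passed with all libraries (0.36, adjusted p = 1, and -0.54, adjusted p = 0.408); without the shallow library, which is in neither group but adds to the spread, the adjusted p was 0.442 and 0.00302. Variation with time passed for 5 chaperones in 5% oxygen (HSPA8, HSP90AA1, HSPH1, HSPB1 and CHORDC1), where it did for 14.5% of all genes. That of HSPA1A did not pass with all libraries (adjusted p = 0.652) and passed without the shallow one (adjusted p = 0.00168). Leaving out 1 library of 3 d ended the call of HSP90AB1 (replicate 2 of 5% oxygen, adjusted p = 0.0828) and of HSPH1 (replicate 1 or 2 of 21% or 2 or 3 of 5% oxygen, 0.0559 to 0.147), and at 6 d that of CHORDC1 (replicate 2 of either level, 0.0801 to 0.0818).

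Set directly against 5% oxygen, 1% oxygen differed in 12 of 40 pairs of a chaperone and a time, 10 lower and 2 higher. CHORDC1 fell at 6 h (-0.52, SE 0.0983, adjusted p = 0.0397), when 0.0471% of all genes passed, 0.0188% lower, and at 24 h (-0.66, adjusted p = 0.0002), when 0.744% of genes passed, 0.0753% lower. At 24 h it had 13.7, 14.6 and 12.9 FPKM in 1% oxygen, against 22.3, 23.2 and 21.3 FPKM in 5% oxygen, with no overlap. HSP90AA1 fell at 24 h as well (-0.35, adjusted p = 0.00684). At 3 d 7 chaperones fell, where 36.6% of genes passed, 23.2% lower, and without the shallow library 3 did, HSPA8 (-0.29), HSPB1 (-0.76) and CHORDC1 (-0.42), where 10.4% of genes passed as lower; HSPA1A was at -0.16 (adjusted p = 0.488) without it. On the TPM scale none of the 10 fell at 3 d and BAG3 rose (0.58), with 2394 genes higher and 865 lower, and HSP90AA1 (0.0894) and HSP90AB1 (0.00186) changed sign. In a limma fit of these groups alone the 7 each had an adjusted p of 0.636, and 0 of all genes passed. CHORDC1 at 24 h was the other call among the 40 pairs on the TPM scale. Without the shallow library HSPA1B (adjusted p = 0.300), HSP90AA1 (0.0882) and HSP90AB1 (0.0619) did not pass at 3 d either. HSPA1A also missed the threshold without any library of 5% oxygen, HSPA1B without replicate 1 or 2 and HSP90AA1 without replicate 3 of 5% oxygen (adjusted p 0.0528 to 0.0882). At 6 d HSPA8 (0.34) and HSP90AA1 (0.22) rose, where 8.61% of genes passed, 4.72% higher. The call of CHORDC1 at 6 h ended when any library but replicate 2 of 5% oxygen was left out (adjusted p 0.139 to 0.289). That of HSP90AA1 at 24 h ended without replicate 1 of 5% oxygen or replicate 1 or 3 of 1% oxygen (0.0510 to 0.0821), and those at 6 d without any library but replicate 1 of 1% oxygen (0.0518 to 0.242).

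Against 6 h in the same oxygen level, HSPH1 and DNAJB1 were the chaperones that passed in 21% oxygen. At 6 d HSPH1 had 49.6, 41.9 and 43.8 FPKM in 21% oxygen, against 10.6, 12.7 and 18.3 FPKM at 6 h, a rise of 1.66 (SE 0.298, adjusted p = 0.00047; 11.1% of all genes passed, 7.89% higher). DNAJB1 rose by 0.41 at 3 d (adjusted p = 0.0145; 4.6% of genes passed, 3.42% higher) and by 0.36 at 6 d (adjusted p = 0.0184). No chaperone passed in limma at 24 h, where 0.132% of genes did; 2 had an unadjusted p below 0.05, as did 949 genes. BAG3 stood below its 6 h level in 21% oxygen, by a log2 difference of -0.34 at 24 h and of -0.44 at 3 d, which did not pass with all libraries (adjusted p = 0.470 and 0.0895) but passed at 3 d without the shallow library (adjusted p = 0.0244). In 5% oxygen 7 chaperones fell at 3 d, where 27.9% of all genes passed, 15.4% lower: HSPH1 (-0.82), HSPA1B (-0.80), HSPA8 (-0.70), BAG3 (-0.66), HSP90AA1 (-0.62), CHORDC1 (-0.46) and HSP90AB1 (-0.29). At 6 d 3 were still lower than at 6 h while HSPH1 rose by 1.07 (22.8% of genes passed, 10.4% lower). At 24 h in 5% oxygen none passed in limma, where 0.141% of genes did; 2 had an unadjusted p below 0.05, as did 294 genes. In 1% oxygen at 3 d 6 fell and DNAJB1 rose by 0.43, where 56.4% of genes passed, 37.8% lower. The falls were HSPA8 (-1.004), HSPA1A (-0.91), HSPA1B (-0.83), HSP90AB1 (-0.76), HSP90AA1 (-0.63) and CHORDC1 (-0.37); without the shallow library HSPA1A (-0.04) and HSPA1B (-0.30) no longer passed. At 24 h in 1% oxygen HSP90AA1 fell (-0.27) and HSPH1 rose by 1.06 (3.79% of genes passed), and at 6 d HSPH1 rose by 1.00 and DNAJB1 by 0.42 (13.9% of genes passed, 7.18% higher). Several of these calls rest on single libraries. Leaving out any of the 6 libraries ended the HSPH1 call at 24 h in 1% oxygen (adjusted p 0.0698 to 0.192) and the HSPH1 call at 3 d in 5% oxygen (0.0605 to 0.124), and any but replicate 3 of 6 d ended that at 6 d in 1% oxygen (0.0517 to 0.209). The DNAJB1 calls in 21% oxygen ended without replicate 1 of 6 h (0.198 at 3 d and 0.208 at 6 d), replicate 2 or 3 of 3 d, or replicate 1 or 3 of 6 d (0.0590 to 0.0886). HSP90AA1 at 24 h in 1% oxygen did not pass without any library but replicate 2 of 24 h (0.0718 to 0.190), nor HSP90AB1 at 6 d in 5% oxygen without any (0.0522 to 0.146).

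HSPH1 had the widest spread within a group of the 10 genes when the shallow library is set aside, a coefficient of variation of 48.8% in 1% oxygen at 6 d. In 5% oxygen at 24 h it had 13.3, 19.6 and 34.0 FPKM in libraries where 20.8%, 37.1% and 67.5% of olfactory receptor genes were above 0. In 1% oxygen at 6 d it had 32.4, 25.6 and 10.6 FPKM where that share was 36.8%, 28.3% and 22.7%. In these groups and in 1% oxygen at 6 h the 3 libraries had the same order for HSPH1 and for that share, and in the other 9 of the 12 groups they did not. In 1% oxygen at 3 d HSPH1 had 7.14 and 14.1 FPKM at shares of 69.6% and 54.4%, and 13.9 FPKM at 2.40% in the shallow library. In 5% oxygen at 3 d HSPH1 had 9.18, 7.36 and 8.76 FPKM at shares of 55.7%, 54.1% and 47.5%. The part of this background in the HSPH1 results was not tested.

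**Figure D3:**
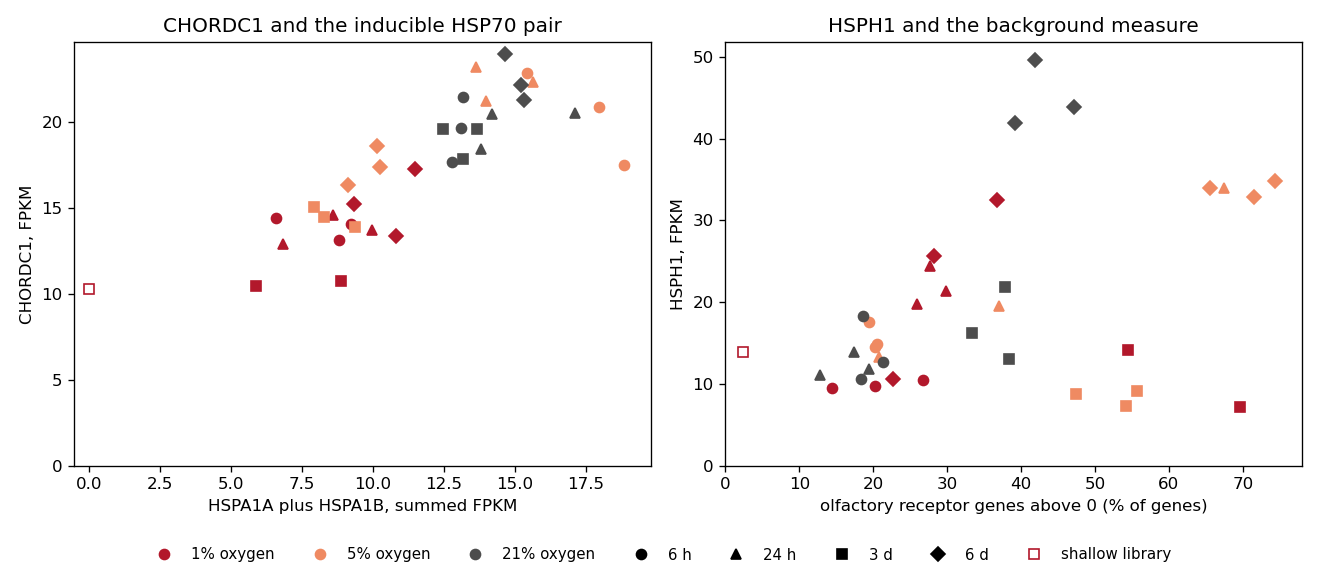
Left, CHORDC1 against the sum of HSPA1A and HSPA1B, and right, HSPH1 against the share of olfactory receptor genes above 0, all in FPKM except that share in percent (1 point per library, colour for oxygen, shape for time, open square for the shallow library). On the left the 1% oxygen libraries reach at most 11.5 FPKM for the sum and 17.3 FPKM for CHORDC1, whereas those of 21% oxygen begin at 12.5 and 17.7 FPKM; on the right the 5% oxygen libraries average 8.43 FPKM of HSPH1 at 3 d, with shares of 47.5% to 55.7%, and 33.9 FPKM at 6 d, with shares of 65.6% to 74.4%.

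Across the 12 group means of log2 FPKM plus 1, CHORDC1 went with HSPA1A (Pearson r 0.95, and 0.92 without the shallow library) and with HSPA1B (0.94 and 0.92). HSPA8 went with HSP90AA1 (0.94 in both cases) and HSP90AB1 (0.93 and 0.91). These sets were not separate, with r between them of 0.60 to 0.90 (0.50 to 0.84 without the shallow library). HSPH1 and DNAJB1 went with neither set. Their r to the other 9 lay between -0.41 and 0.47 for HSPH1 (-0.34 and 0.50 without the shallow library) and between -0.48 and 0.33 for DNAJB1 (-0.63 and 0.27). The highest r was 0.50 for HSPB1 and 0.53 for BAG3 (0.48 and 0.60 without the shallow library). The groups share libraries, scaling and background, and these r values are descriptions. Of 7252 other genes with a mean of at least 5 FPKM, those most like the inducible pair over the same 12 means were HN1L (0.95), ZNF232 (0.94), ZNF30 (0.93), HIATL1 (0.93) and ZDHHC6 (0.92), with r of 0.74 to 0.87 without the shallow library. Those most like HSPH1 were CCDC117 (0.97), RCN2 (0.96), NR2F6 (0.96), GOPC (0.96) and SSFA2 (0.95).

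RNA of the factors that switch these genes on was measured too, but not their activity. In the values as deposited HSF1 rose in 1% oxygen at 24 h (1.16, SE 0.313, adjusted p = 0.0108). Its group mean was 19.4 FPKM, against 8.34 FPKM in 21% oxygen, and 5 of the 10 chaperones fell there. HSBP1, a small protein that binds HSF1 and is known to restrain it, fell at 24 h (-0.58, adjusted p = 0.000783) and 3 d (-0.49, adjusted p = 0.000494). HSF2, a related factor, had a difference of -2.06 at 3 d, and -0.73 without the shallow library (adjusted p = 1.69e-07). Of the 4 regulators tested, 1 rose and 1 fell at 24 h, where 6.56% of all genes rose and 9.66% fell. At 3 d 2 fell, where 36.3% of all genes did. On the TPM scale 1 regulator rose and 0 fell at 24 h, and 2 of the 10 chaperones rose and 0 fell, where 2286 genes rose and 88 fell.

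Co-chaperones of HSP90 and the TRiC chaperonin, the ring that folds actin and tubulin, fell at 3 d with the HSP90 genes. Of 12 HSP90 co-chaperones 11 fell in 1% oxygen at 3 d (12 without the shallow library), where 36.3% of all genes did (28.5% without it). Their median was -0.80 beside -0.32 for all genes. In 5% oxygen 9 fell, where 13.6% of all genes did, with a median of -0.53 beside -0.10. FKBP4, a prolyl isomerase of steroid receptor complexes, had log2 differences of -2.19 in 1% oxygen and -1.17 in 5% oxygen. NUDC, a protein of the dynein pathway that also binds HSP90, had -1.36 and -0.81, and STIP1, which links HSP70 to HSP90, had -1.24 and -0.56. All 8 TRiC subunits fell in both oxygen levels at 3 d, with medians of -1.06 and -0.57. Without the shallow library the 1% median was -0.79 for TRiC and -0.75 for the HSP90 co-chaperones, beside -0.0146 for all genes. TCP1 had -1.05 and -0.72, and the values of single genes here are with all libraries. The counts of co-chaperones and TRiC subunits that fell were 9 or 10 of 12 and 8 of 8 in 1% oxygen, and 8 to 11 of 12 and 8 of 8 in 5% oxygen, under the 2 rescalings. Of the 10625 genes 3102 (TPM) and 2978 (quantile) were then lower in 1% oxygen, and 1850 and 1538 in 5% oxygen.

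At 24 h in 1% oxygen 8 HSP90 co-chaperones and 5 TRiC subunits fell, where 9.66% of all genes did, and PPP5C, a phosphatase bound to HSP90, rose by 1.11, but on the TPM scale none of either list fell and after quantile normalization 2 and 0 did. At 6 d in 1% oxygen 4 co-chaperones and no TRiC subunit fell, where 5.04% of all genes did. Of 18 other HSP70 family and co-chaperone genes tested, 2 rose and 8 fell in 1% oxygen at 3 d, where 53.2% of all genes passed and 36.3% fell, and their median of -0.40 stood beside -0.32 for all genes; DNAJA1 and DNAJA2, J-domain partners of HSPA8, fell (-0.85 and -0.72), as did HSPA14 (-1.40; without the shallow library the 3 were at -0.58, -0.53 and -0.90). Of 7 other targets of heat shock factors, the mitochondrial chaperonins HSPD1 and HSPE1 fell in 1% oxygen at 3 d (-1.35 and -1.65; -1.26 and -1.51 without the shallow library) and in 5% oxygen (-0.77 and -0.86). In all 1 of the 7 rose and 4 fell in 1% oxygen at 3 d, and 2 rose and 3 fell without the shallow library, with list medians of -1.13 with it and -0.19 without it. Of 4 small heat shock proteins tested, HSPB11 fell (-1.04), which did not pass without the shallow library (-0.27, adjusted p = 0.0984), and no other passed.

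**Figure D4:**
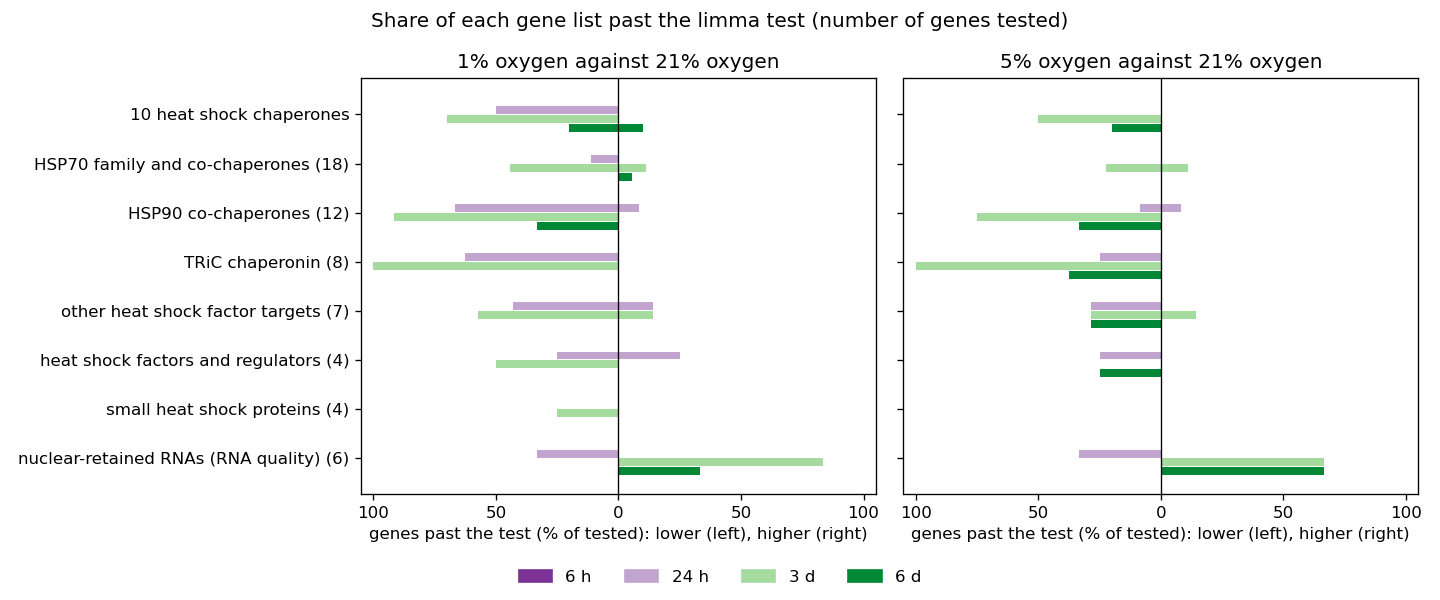
Percent of the tested genes of each list that passed the test as lower (bars to the left of 0) or higher (to the right) in 1% oxygen (left panel) and 5% oxygen (right panel) against 21% oxygen, with colours for the 4 times and the number of genes tested in brackets. All 8 TRiC subunits and 11 of 12 HSP90 co-chaperones are lower in 1% oxygen at 3 d, where 36.3% of all genes are, and no list has a bar at 6 h.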

How the data were processed

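The values were deposited by the authors as FPKM per gene and per transcript, made with TopHat and the Cufflinks suite (Cuffquant, Cuffnorm) from paired reads of 25 bases, per the labels and the submitters' processing notes. For tool versions, build and gene annotation the sources used here give nothing. Without counts the depth is unknown, and relative depth was estimated from weakly expressed genes. Groups came from the labels.

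All tests used log2(FPKM + 1), where 1 is the pseudocount. The genes whose mean reached 1 FPKM entered a single limma model (limma 3.58.1, R 4.3.3) of 12 group means, with the prior variance trended on level; 24 degrees of freedom were left. Tests were two-sided, with Benjamini-Hochberg adjustment over all 10625 genes and a threshold of 0.05. Variation with time was tested by the moderated F test of the interaction. The procedure was tested on simulated data. The 10 chaperones, the 7 gene lists and the tests were chosen with earlier results of these data known. Named are all 10 chaperones, up to 4 genes per list and comparison with the smallest adjusted p among those that passed, and the 5 genes most correlated with the inducible pair and with HSPH1; of these the text gives a part, and HSPA6, PTPRC, LYZ and other markers are given as levels. Some of the listed genes and markers are not reported here. Replicate numbers did not pair libraries: same-numbered deviations were all correlated above 0.1 in 0 of 21 comparisons. The alternatives were another pseudocount, other filters, TPM, quantile normalization, array weights, a replicate block, a fit on the compared groups, the inducible pair summed, and leaving out libraries. Shared sequence was counted over GENCODE transcripts, and promoters were read from RefSeq (GRCh38.p14). Plots used matplotlib 3.10.9 (Python 3.11.15).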

Additional observations from a re-analysis of the deposited data

Results flagged for a closer look

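No group had more than 3 libraries, so single libraries could not be tested as outlying. For 9 results the difference from 21% oxygen changed between times, by a moderated F test of the interaction in limma. In 1% oxygen these were HSPA8 (adjusted p = 1.02e-07), HSP90AB1 (adjusted p = 2.17e-05), HSP90AA1 (adjusted p = 6.39e-05) and HSPH1 (adjusted p = 0.00615), 4 of 10 chaperones where 40.3% of all genes passed. For HSPA8 the log2 differences were -0.05, -0.49, -1.001 and 0.30 at 6 h, 24 h, 3 d and 6 d.

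In 5% oxygen they were HSPA8 (adjusted p = 0.00508), HSP90AA1 (adjusted p = 0.00757), CHORDC1 (adjusted p = 0.00905), HSPH1 (adjusted p = 0.0318) and HSPB1 (adjusted p = 0.0496), 5 of 10 where 14.5% of all genes passed. CHORDC1 differed by 0.05, 0.16, -0.37 and -0.35 at the 4 times in 5% oxygen. HSPB1 differed by -0.41 at 24 h and 0.33 at 3 d; its call ended in most fits that left out 1 library (adjusted p up to 0.207, without replicate 3 of 21% oxygen at 24 h), and that of HSPH1 without any of 8 libraries of 24 h or 3 d (adjusted p up to 0.0899).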

How the results depend on the processing

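Of 250 comparisons of a chaperone, 79 passed, and 27 passed under every alternative run. In the single comparisons 0% to 56.4% of all genes passed. The share of all genes that passed under every alternative was not computed, so the 27 cannot be set against it. Without the shallow library the chaperones that changed numbered 2 at 6 h, 8 at 24 h and 5 at 6 d in 1% oxygen (0, 5 and 3 with it). Of all genes 0.0941%, 38.6% and 29.8% then passed (0%, 16.2% and 10.9% with it). In 5% oxygen the chaperones numbered 2 at 24 h, 8 at 3 d, 4 at 6 d and 7 on average (0, 5, 2 and 3 with it). Of all genes 28.2%, 44.9%, 37% and 48.4% then passed (9.38%, 21.8%, 14.8% and 24.2% with it). In 21% oxygen 5 rather than 3 pairs changed with time. There 2.42%, 18.1% and 29.3% of genes passed at 24 h, 3 d and 6 d (0.132%, 4.6% and 11.1% with it). Array weights gave 2, 8 and 6 in 1% oxygen at 6 h, 24 h and 6 d, and 2, 8, 5 and 7 in 5% oxygen at 24 h, 3 d, 6 d and on average. Of the 10625 genes 32, 3791 and 4564 then passed in 1% oxygen, and 2486, 5677, 5588 and 5719 in 5% oxygen. Between 1% and 5% oxygen 19 pairs differed (12 otherwise), where 335, 1162, 1990 and 4037 genes passed at the 4 times. In 5% oxygen 8 chaperones varied with time (5 otherwise), a count for which the share of all genes was not computed. Pairs changed from 6 h numbered 18, 17 and 7 in 1%, 5% and 21% oxygen (11, 11 and 3 otherwise). At 24 h, 3 d and 6 d the genes numbered 3438, 5945 and 5042 in 1%, 104, 5719 and 5747 in 5%, and 79, 2920 and 4130 in 21% oxygen.

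On the TPM scale 2 changed in 1% oxygen at 24 h and 5 on average, 6, 0 and 1 changed in 5% oxygen at 24 h, 6 d and on average, 2 pairs differed between 1% and 5%, and 5 pairs changed with time in 1% oxygen. Of the 10625 genes 2374 and 2726 passed on the TPM scale in 1% oxygen, and 1721, 1035 and 1885 in 5% oxygen. Between 1% and 5% oxygen 0, 47, 3259 and 579 genes passed at the 4 times, and 161, 5252 and 1101 changed from 6 h in 1% oxygen. Quantile normalization gave 4, 8 and 5 in 5% oxygen at 24 h, 3 d and 6 d, and 5 pairs with time in 21% oxygen. Of all genes 293, 2867 and 2241 then passed in 5% oxygen, and 32, 848 and 1619 changed from 6 h in 21% oxygen. Fitting the compared groups alone gave 2 in 1% oxygen at 3 d, where 7 changed in the fit of all groups. Of all genes 818 passed there, and 5649 in the fit of all groups. The compared groups alone gave 8, 6 and 7 in 5% oxygen at 3 d, 6 d and on average. They gave 4 pairs between 1% and 5%, and 5 pairs with time in 21% oxygen. Genes numbered 4443, 5229 and 5029 in 5% oxygen, 2, 113, 0 and 2794 between 1% and 5%, and 0, 1848 and 3354 with time in 21% oxygen. With no filter 3 chaperones varied with time in 5% oxygen, where the share of all genes was not computed. The cause of these shifts was not tested.

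Directions turned only under rescaling. On the TPM scale the 1% differences at 24 h became 0.21 for HSP90AB1 and 0.39 for DNAJB1, and the 5% differences became 0.26 for HSPA8, 0.31 for HSP90AA1 and 0.32 for HSP90AB1. After quantile normalization they were 0.11 for HSPA8 and 0.28 for HSP90AB1 in 1% oxygen at 24 h, 0.29 for DNAJB1 and 0.0928 for HSPB1 at 3 d and -0.0327 for HSPA8 at 6 d, and 0.45, 0.31 and 0.41 for HSPA8, HSP90AA1 and HSP90AB1 in 5% oxygen at 24 h. HSP90AB1 averaged 0.000531 in 1% and 0.0143 in 5% oxygen (TPM), and HSP90AA1 0.00702 in 5% oxygen (quantile). Between 1% and 5% oxygen at 3 d HSP90AA1 became 0.0894 (TPM) and 0.0483 (quantile), and HSP90AB1 0.00186 (TPM). A further 51 comparisons changed sign without passing in either fit.

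Leaving out 1 library of the compared groups, and of no other group, gave 0 to 0, 3 to 5, 6 to 7 and 1 to 3 changed chaperones in 1% oxygen at 6 h, 24 h, 3 d and 6 d and 7 to 9 on average, and 0 to 0, 0 to 1, 3 to 5, 1 to 2 and 3 to 4 in 5% oxygen. It gave 8 to 15 pairs between 1% and 5%, 4 to 6 and 3 to 5 chaperones that varied with time in 1% and 5% oxygen, and 6 to 14, 8 to 11 and 1 to 3 pairs changed from 6 h in 1%, 5% and 21% oxygen. Genes passing in these fits were not counted over the whole table, so the ranges stand without a share of all genes.

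With the replicate number as a block 6 of the 250 comparisons no longer passed and 2 more did; each library was most like its own number in 1 of 21 comparisons, so the numbers do not pair the libraries. FPKM tables give no depth, so low levels such as those of HSPA1B carry a counting error that could not be computed.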
